A study of Petunia x hybrida with 32 samples.

Results

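The transcripts described here were 45 assembled sequences of petunia leaves annotated to lipid metabolism, out of 4767 with expression values. A transcript was taken when its annotation carried the Gene Ontology (GO) term lipid metabolic process, which 42 did, or when its description named a GDSL esterase or an acyltransferase, which added 3. Of 95 such candidates, 50 were left out because they were also annotated to carbohydrate metabolism, the thylakoid or the mitochondrion, were described as protein kinases or transporters, or belonged to components excluded by name. The 45 came from 33 components, a component being the set of sequences that the assembler treats as 1 gene and its sequences being called isoforms. The rule uses annotation and names, not expression values, although it was written with earlier results of these data known. In the whole annotation, 844 of 18482 transcripts carry the same term, so only those among the 4767 could be followed.

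Leaves build fatty acids in the plastid, desaturate and elongate them in the plastid and the endoplasmic reticulum, and assemble them into membrane glycerolipids, storage triacylglycerol and the cutin and wax of the cuticle. Sterols, which stiffen membranes, and plastid monoterpenes come from the isoprenoid pathway and are also counted as lipids. Phosphoinositides are minor membrane lipids whose cleavage by phospholipase C is a known step of plant signalling under osmotic and salt stress.

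Plants of Petunia x hybrida, genotype Mitchell Diploid, grew in nutrient solution in a growth chamber, and leaf RNA was sequenced as strand-specific poly(A) libraries. Salt-treated leaves (150 mM NaCl) were taken at 6 and 24 h, and control leaves (no NaCl) at 0, 6 and 24 h. Each of the 5 groups had 3 biological replicates, and a replicate pooled the leaves of 3 plants, so that p-values measure the spread between such pools. Most replicates had 1 library with an HPLC-purified and 1 with a non-HPLC index primer, and their mean was used here. Control 6 h replicate 2 and salt 24 h replicate 2 rested on 1 library each, by the names of the columns used. For the salt replicate, the non-HPLC column was left out here. Values are RPKM, reads scaled to the length of the transcript and to the total of the library, so levels can be compared between transcripts. Depth in reads cannot be recovered from these values, and the precision rests on 3 replicates. Photosynthesis transcripts, taken as mesophyll markers, summed to at least 1190 RPKM per replicate in all groups. Nearly all of that sum came from 1 chlorophyll a-b binding transcript (comp25306). Summed RPKM over the transcripts ranged from 134509 to 303427 between libraries, and the median RPKM from 2.93 to 4.23.

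The label of lipid metabolism holds for a part of the members only. Descriptions that name lipid enzymes cover GDSL esterases (2 transcripts), a triacylglycerol lipase (1), phosphoinositide enzymes (2), fatty acid synthesis and activation (3), a plastid desaturase (2), glycerolipid assembly (3), sterol enzymes (3) and terpenoid enzymes (4, of which isoform 2 of comp16984 counts by its component, being described only as a partial chloroplast sequence). Another 2 are cytochromes P450, 2 are reductases of pollen wall or phenolic synthesis and 2 are other acyltransferases. The rest are 4 isoforms of phytochrome b, a red light receptor, 5 isoforms of comp21345 and 2 other transcripts without a usable description, and 8 with other descriptions. Among those 8 are an enzyme of glycolipid anchors, a 14-3-3 protein, a universal stress protein and the beta chain of tryptophan synthase. Besides the term that chose them, 57.8% of the members carried the term biosynthetic process, against 11.8% of the other transcripts with an annotation, and 40% carried membrane, against 17.4%. Isoforms count more than once here, the members with these terms being 19 and 11 components. The terms come from the annotation that chose the members, so these shares describe the choice and are not a separate result.

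All 45 passed the minimum of 1 RPKM in 3 replicates. The cinnamoyl reductase-like comp18237 reached it in 3 replicates only and isoform 1 of phospholipid:diacylglycerol acyltransferase 2 in 4. The uncharacterised comp26404 reached it in 5 and isoform 2 of comp21345 in 6, all at 6 h. This means that these transcripts entered the test through the groups in which they were high. Mean levels over the 15 replicates ran from 0.957 to 140 RPKM with a median of 5.36, against 4.48 for all transcripts. The sterol C5 desaturase-like transcript was the highest, followed by phospholipase C, the hydroxyacyl-ACP dehydrase and the C-4 methyl sterol oxidase. The summed level of the 45 was 516 ± 71 RPKM in salt and 627 ± 14 in control leaves at 6 h (SD, n = 3 each). At 24 h it was 464 ± 32.4 RPKM in salt and 683 ± 65.3 in control leaves, and the replicates of the 2 groups did not overlap at either hour. The most abundant members weigh most in these sums. The sterol C5 desaturase-like transcript alone had a mean of 49.5 RPKM in salt and 179 in control leaves at 24 h. The median log2 change of the members at 24 h was 0.00, with 23 of the 45 above 0. As a share of all RPKM in a replicate, the 45 took 0.189% to 0.226% in salt and 0.293% to 0.408% in control leaves at 6 h. At 24 h the shares overlapped, with 0.273% to 0.286% in salt and 0.282% to 0.353% in control leaves. These shares depend on the total, which differed between the groups. The median summed RPKM of a library was 232462 in salt and 160499 in control leaves at 6 h. At 24 h it was 167911 in salt and 223873 in control leaves.

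**Figure D1:**
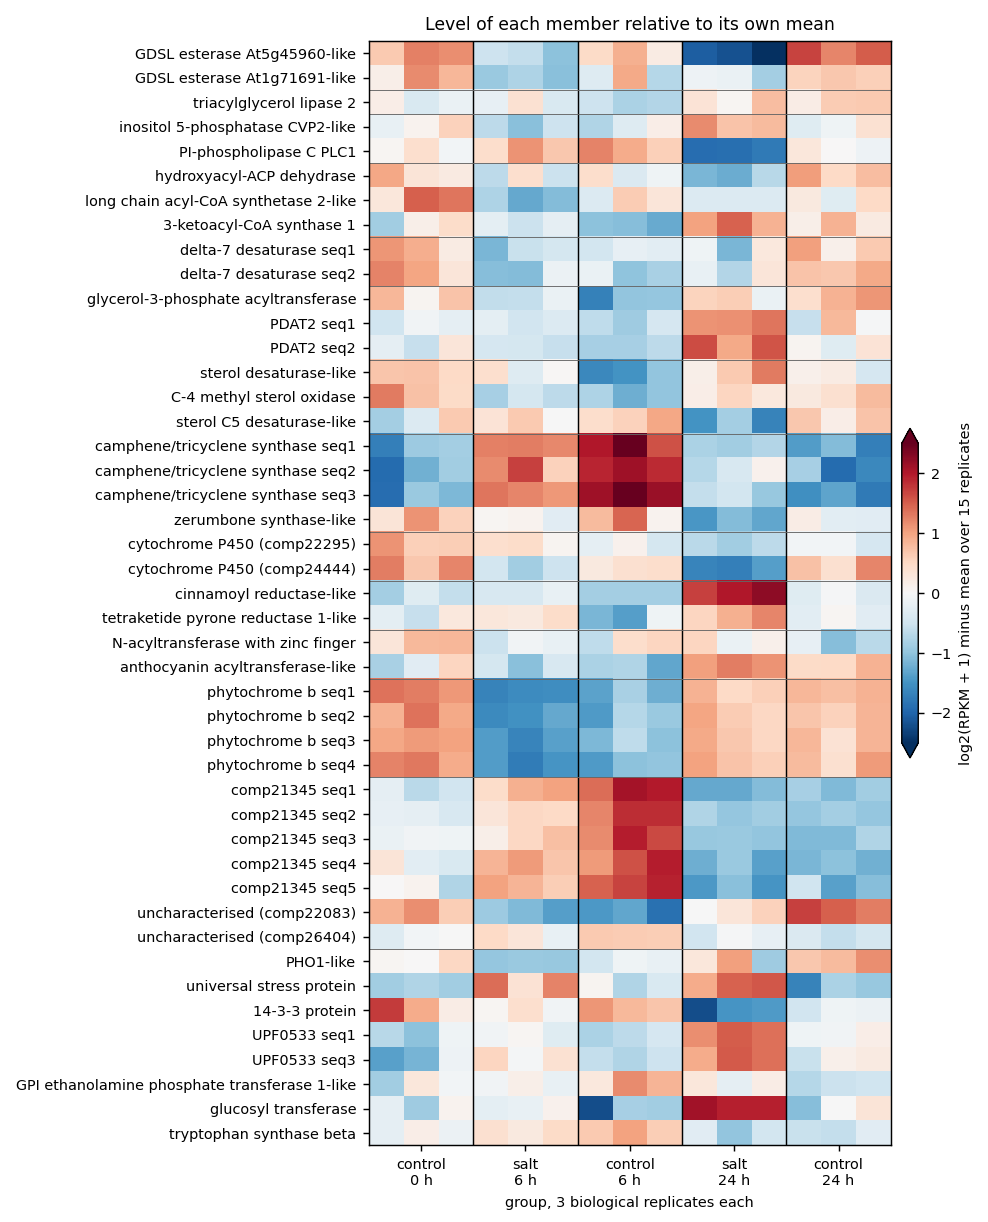
Level of each of the 45 members (rows, grouped by role) in each of the 15 biological replicates (columns, by group), as log2(RPKM + 1) minus the member's mean over the 15, with red above and blue below that mean. The 3 camphene/tricyclene synthase isoforms and the 5 isoforms of comp21345 are highest in control leaves at 6 h, the 4 phytochrome b isoforms are low in both groups at 6 h, and the GDSL esterase, phospholipase C and P450 comp24444 are lowest in salt at 24 h.

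At 24 h of salt, transcripts of a GDSL esterase, phospholipase C, a sterol C5 desaturase, a fatty acid synthesis enzyme and a P450 stood at about 3.58-fold to 17.3-fold lower mean RPKM than in control leaves. Isoforms 1 and 2 of a triacylglycerol-forming acyltransferase stood 2.94-fold and 3.70-fold higher, and a glucosyl transferase stood 4.76-fold higher. Of the 45 members, 11 were higher, among them comp18237 that entered the test through this group, and 11 lower at a false discovery rate (FDR) of 0.05 in limma, and 24.2% and 22.3% of all 4658 tested transcripts were called higher and lower. Together 22 of the 45 were called, while 46.5% of all transcripts were, so the members' shares were near the background. The median change was 0.00 (log2) in the members and 0.01 in all tested transcripts. All changes below are differences of log2(RPKM + 1), which understates the change of low transcripts, with limma's standard error (SE), and adjusted p is limma's after Benjamini-Hochberg adjustment over the 4658 transcripts.

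Among the ester hydrolases, the GDSL esterase/lipase At5g45960-like (comp11731) had 4.28, 3.82 and 2.37 RPKM in salt at 24 h, against 69.2, 50.3 and 61.9 RPKM in control leaves. GDSL enzymes cleave ester bonds, and members of the family act on cutin and other extracellular polyesters in tomato and Arabidopsis. The groups lay far apart, at -3.79 ± 0.26 (SE, adjusted p = 1.1e-07), the largest change of any member in this comparison. The other GDSL esterase, At1g71691-like (comp24236), had 1.48, 1.43 and 0.51 RPKM in salt, against 3.02, 3.37 and 3.11 in control leaves (-1.0 ± 0.37, adjusted p = 0.038). Its call was lost in 6 of the 15 fits that left out 1 replicate, with an adjusted p up to 0.149 without salt 24 h replicate 3. Triacylglycerol lipase 2 (comp21430), which releases fatty acids from storage oil, had 4.92, 3.89 and 7.0 RPKM in salt and 4.32, 6.35 and 6.45 in control leaves (adjusted p = 0.77).

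Of the phosphoinositide enzymes, phospholipase C PLC1 (comp25389), which splits phosphatidylinositol bisphosphate into inositol trisphosphate and diacylglycerol, fell to 14, 14.3 and 15.6 RPKM in salt at 24 h, against 67.3, 55.5 and 50.5 in control leaves. The change was -1.90 ± 0.23 (adjusted p = 1.8e-05), and the 3 salt replicates lay closer together than those of any other group. The inositol 5-phosphatase CVP2-like transcript (comp15566) moved the other way. Enzymes of this type remove the 5-phosphate of inositol trisphosphate or of phosphoinositides, and CVP2 is known from leaf vein patterning in Arabidopsis. It had 14.6, 10.3 and 11 RPKM in salt, against 4.58, 5.46 and 7.99 in control leaves (0.90 ± 0.29, adjusted p = 0.021). That call was lost without control 24 h replicate 1 (adjusted p = 0.0817), control 24 h replicate 2 (0.0554) or salt 24 h replicate 1 (0.0849).

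In fatty acid synthesis, the hydroxyacyl-ACP dehydrase (comp15190), which removes water in each round of chain building in the plastid, had 18.3, 16.9 and 25.3 RPKM in salt at 24 h. Control leaves had 85.9, 59.0 and 71.8 RPKM, so the groups did not overlap (-1.79 ± 0.31, adjusted p = 0.00034). Both isoforms of the plastid palmitoyl-monogalactosyldiacylglycerol delta-7 desaturase (comp7051), which puts a double bond into palmitate on the main thylakoid galactolipid, were lower as well. Isoform 2 had 2.56, 1.45 and 3.99 RPKM in salt and 5.68, 5.45 and 6.79 in control leaves (-0.98 ± 0.35, adjusted p = 0.031), and isoform 1 had 1.89, 0.41 and 2.74 RPKM in salt and 5.31, 2.4 and 3.9 in control leaves, where the groups overlapped (-0.93 ± 0.36, adjusted p = 0.046). These calls were lost in 5 and 10 of the 15 fits without 1 replicate, with adjusted p up to 0.138 and 0.239 without salt 24 h replicate 2. With both isoforms summed, the change was -1.12 ± 0.38 (adjusted p = 0.023).

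The other 2 transcripts of fatty acid synthesis and activation did not pass the test at 24 h. 3-Ketoacyl-CoA synthase 1 (comp8015), which starts the elongation of very long chain fatty acids for wax in Arabidopsis, had 22.6, 31.6 and 20.4 RPKM in salt and 12, 20.4 and 12.7 in control leaves (0.70 ± 0.31, adjusted p = 0.075). Long chain acyl-CoA synthetase 2-like (comp16945), whose Arabidopsis counterpart activates fatty acids for cutin, had 9.07, 9.08 and 9.02 RPKM in salt and 14.1, 9.32 and 17.0 in control leaves (adjusted p = 0.23).

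Of the glycerolipid enzymes, both isoforms of phospholipid:diacylglycerol acyltransferase 2 (comp24750) were higher in salt at 24 h. The enzyme moves a fatty acid from a phospholipid to diacylglycerol and so makes triacylglycerol. Isoform 2 had 6.09, 3.44 and 5.88 RPKM in salt, against 1.41, 0.855 and 1.90 in control leaves (1.35 ± 0.26, adjusted p = 0.00073). Isoform 1 had 3.08, 3.09 and 3.72 RPKM in salt and 0.25, 2.29 and 0.825 in control leaves (1.13 ± 0.28, adjusted p = 0.0038), and its call was lost with HPLC libraries only (adjusted p = 0.0533). The authors' program divides reads between isoforms of a component, so the sum is the firmer value, and it changed by 1.44 ± 0.26 (adjusted p = 0.00046). The glycerol-3-phosphate acyltransferase (comp13464), which adds the first fatty acid to the glycerol backbone, had 16.5, 17.1 and 9.61 RPKM in salt and 14.8, 20.6 and 24.5 in control leaves (adjusted p = 0.22).

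Of the 3 sterol enzymes, 1 was called at 24 h. The sterol C5 desaturase-like transcript (comp16227), which places a double bond in the sterol ring late in the pathway, had 42.6, 68.0 and 37.9 RPKM in salt, against 197, 138 and 202 in control leaves (-1.86 ± 0.34, adjusted p = 0.00049). C-4 methyl sterol oxidase (comp15784), which starts removal of the methyl groups at carbon 4, had 43.0, 56.5 and 46.0 RPKM in salt and 45.8, 50.8 and 66.8 in control leaves (adjusted p = 0.62). The sterol desaturase-like partial sequence (comp11551) spread widely in salt, with 16.7, 24.2 and 38.4 RPKM, against 16.4, 17.3 and 11 in control leaves (0.74 ± 0.30, adjusted p = 0.054).

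Terpenoid transcripts were low at 24 h in both groups. The zerumbone synthase-like dehydrogenase (comp9705), named after a ginger enzyme of sesquiterpenoid synthesis, had 0, 0.29 and 0.12 RPKM in salt and 2.11, 1.28 and 1.25 in control leaves (-1.15 ± 0.31, adjusted p = 0.0076). Isoforms of the camphene/tricyclene synthase (comp16984), a plastid enzyme that makes monoterpenes, were higher in salt for isoform 2 (1.12 ± 0.36, adjusted p = 0.020) and isoform 3 (0.88 ± 0.28, adjusted p = 0.018). Isoform 3 had 1.79, 2.05 and 1.18 RPKM in salt, against 0.445, 0.69 and 0.225 in control leaves. Each call was lost without any one of 3 replicates, up to an adjusted p of 0.0899 for isoform 2 without salt 24 h replicate 3 and of 0.0635 for isoform 3 without salt 24 h replicate 2. The 3 isoforms summed changed by 1.38 ± 0.39 (adjusted p = 0.0086).

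Cytochrome P450 comp24444, one of the large family of plant monooxygenases, had 0.645, 0.57 and 0.995 RPKM in salt at 24 h, against 7.58, 5.79 and 11 in control leaves (-2.36 ± 0.26, adjusted p = 8.9e-06). The other P450, comp22295, stood at 0.345, 0.18 and 0.37 RPKM in salt and 1.04, 1.05 and 0.60 in control leaves (-0.54 ± 0.22, adjusted p = 0.054). Both reductases were higher. The cinnamoyl reductase-like transcript (comp18237), related to an enzyme of lignin monomer synthesis, had 4.90, 6.23 and 7.44 RPKM in salt and 0.455, 0.76 and 0.405 in control leaves (2.21 ± 0.19). Its adjusted p of 1.1e-06 comes from a transcript that passed the minimum only in these 3 salt replicates, and without a minimum it was 8.8e-07. Tetraketide alpha-pyrone reductase 1-like (comp20054), whose Arabidopsis counterpart makes sporopollenin precursors in anthers, had 3.56, 4.86 and 6.36 RPKM in salt and 1.63, 2.27 and 1.60 in control leaves (1.05 ± 0.32, adjusted p = 0.015). Its call was lost without salt 24 h replicate 3 (adjusted p = 0.0649), at a pseudocount of 0.1 (0.0612) and with HPLC libraries only (0.0531).

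Several of the clearest changes at 24 h were in members that are not lipid enzymes by description. The universal stress protein (comp16490) had 12.6, 18.8 and 20.0 RPKM in salt, against 1.24, 3.1 and 2.69 in control leaves (2.46 ± 0.32, adjusted p = 3.3e-05). The glucosyl transferase (comp25076) had 49.5, 44.4 and 44.5 RPKM in salt, against 4.62, 10.7 and 13.8 in control leaves (2.25 ± 0.39, adjusted p = 0.00038). The 2 member isoforms of the UPF0533 protein (comp20633, with 3 isoforms that have values) were higher, by 1.36 ± 0.24 and 1.34 ± 0.32 (adjusted p = 0.00042 and 0.0034). The 14-3-3 protein (comp18299), of a family that binds phosphorylated proteins, had 3.84, 7.09 and 7.39 RPKM in salt and 15.1, 19.7 and 19.1 in control leaves (-1.45 ± 0.33, adjusted p = 0.0026). The uncharacterised comp22083 had 14.5, 18.2 and 22.3 RPKM in salt and 50.4, 43.1 and 36.8 in control leaves (-1.21 ± 0.24, adjusted p = 0.00096).

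**Figure D2:**
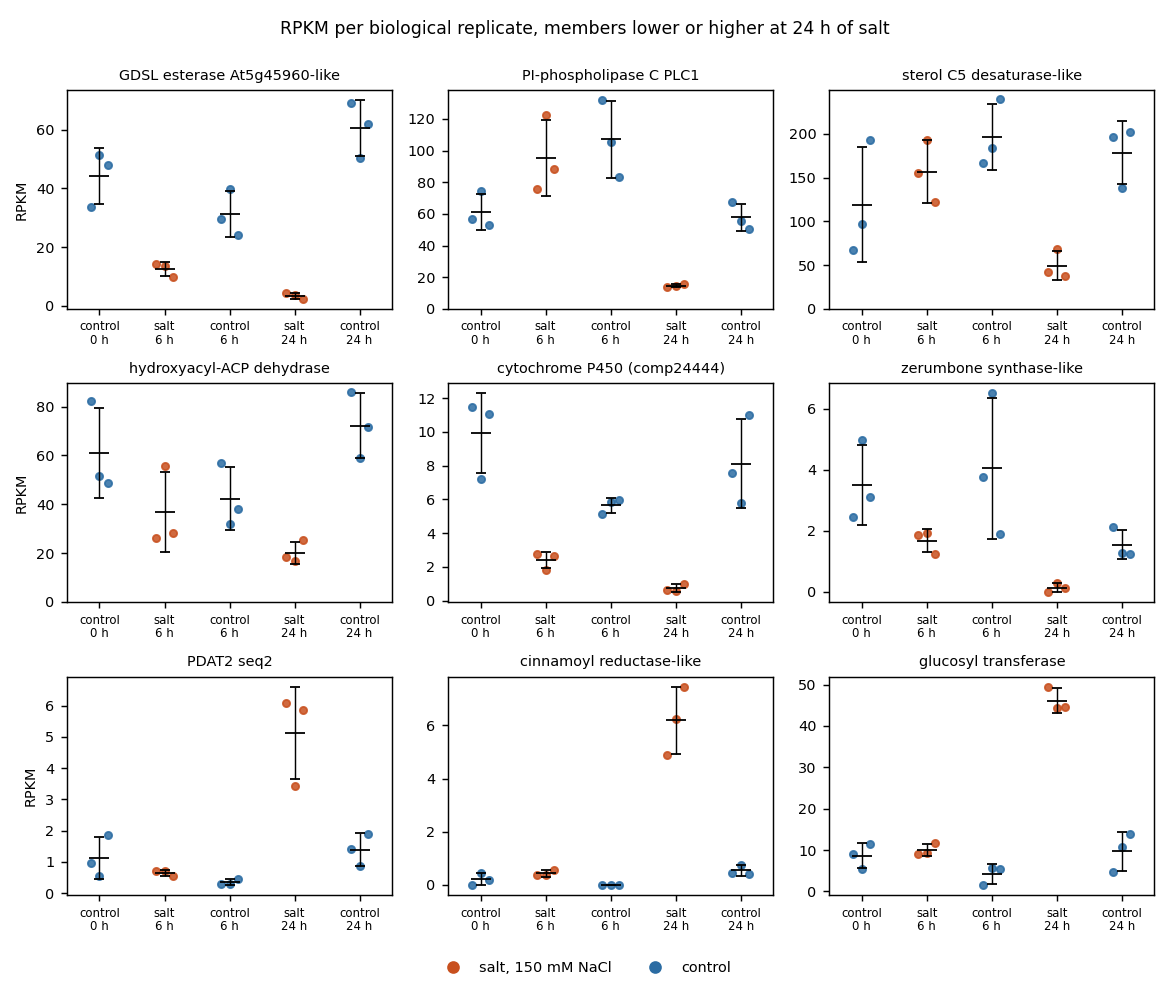
RPKM (vertical axis, linear, scale differing between panels) of 9 members in each biological replicate of the 5 groups (points), with the mean and SD (black). In salt at 24 h the replicates lie below all 24 h control replicates for the first 6 panels and above them for the last 3, for example 44.4 to 49.5 RPKM in salt against 4.62 to 13.8 RPKM in control leaves for the glucosyl transferase.

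Of the 22 calls at 24 h, 15 held in all 15 fits that left out 1 replicate. At the stricter threshold of FDR 0.001 with a log2 change of at least 1, 5 members were higher and 6 lower, and 7.36% and 7.17% of all transcripts were. Some photosynthesis transcripts, used as leaf mesophyll markers, moved in the same comparison. The 5 found summed to between 1190 and 1282 RPKM in salt at 24 h and between 3527 and 4902 in control leaves. Nearly all of this was the chlorophyll a-b binding comp25306, with means of 1214 RPKM in salt and 4084 in control leaves. Of the 4 tested, 2 were lower, while 22.3% of all transcripts were. The photosystem II transcript comp15128 had slightly higher means in salt, 6.33 against 5.89 RPKM. The 3 xylem and lignin transcripts summed to between 43.0 and 57.2 RPKM in salt and between 72.1 and 90.7 in control leaves, with 1 lower. Most of that gap was in the cinnamyl alcohol dehydrogenase comp23357, with means of 26.35 RPKM in salt and 67.6 in control leaves. The other cinnamyl alcohol dehydrogenase (comp15082) went the other way, with means of 21.8 RPKM in salt and 15.2 in control leaves. The part of either list in the results was not tested. Fewer cells of a type and less RNA per cell cannot be told apart in these bulk samples.

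After 6 h of salt, fewer members passed the test against the control leaves of that hour than after 24 h. Of the 45, 6 were higher and 9 lower, while 17.3% and 17.2% of all tested transcripts were called (15 members against 34.5% of all), and the median change was -0.39 (log2) in the members and -0.07 in all. With the medians of the replicates made equal, the split was 8 higher and 7 lower. Without control 6 h replicate 2 the count of 15 became 9. The stricter threshold left 1 member lower, isoform 2 of comp21345, and 0 higher, at a background of 1.93% and 3.05%. In limma 10 members were higher and 17 lower at an unadjusted p under 0.05, while 22.5% and 24.3% of all transcripts were.

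The sterol desaturase-like transcript (comp11551) gave the largest increase at 6 h, with 20.4, 11.8 and 15.4 RPKM in salt, against 4.20, 4.70 and 7.03 in control leaves (1.41 ± 0.30, adjusted p = 0.0028). Control leaves had 24.9, 25.2 and 21.7 RPKM at 0 h and 16.4, 17.3 and 11 at 24 h, so the salt-treated leaves at 6 h overlapped the control leaves of 24 h and lay below that of control leaves at 0 h. The universal stress protein (comp16490) had 17.8, 8.20 and 15.8 RPKM in salt and 6.5, 3.26 and 4.45 in control leaves (1.35 ± 0.32, adjusted p = 0.0056), a call lost with HPLC libraries only (adjusted p = 0.186). Tetraketide alpha-pyrone reductase 1-like had 2.86, 2.76 and 3.35 RPKM in salt and 0.435, 0.22 and 1.94 in control leaves (1.21 ± 0.32, adjusted p = 0.010), lost without control 6 h replicate 2 (0.0577).

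The other increases at 6 h were less stable. The glucosyl transferase had 8.95, 9.34 and 11.7 RPKM in salt and 1.52, 5.64 and 5.48 in control leaves (1.2 ± 0.39, adjusted p = 0.030, up to 0.125 without control 6 h replicate 1). UPF0533 isoform 3 had 11.4, 7.29 and 10.2 RPKM in salt and 4.67, 4.08 and 5.01 in control leaves (0.91 ± 0.32, adjusted p = 0.039, up to 0.120 without salt 6 h replicate 1). The cinnamoyl reductase-like transcript was listed at 0 in all 3 control replicates at 6 h and at 0.365, 0.36 and 0.57 RPKM in salt (adjusted p = 0.048), and its call was lost in 11 of the 15 fits without 1 replicate.

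Lower in salt at 6 h was the GDSL esterase comp11731, with 14.4, 13.4 and 9.69 RPKM, against 29.6, 39.7 and 24.2 in control leaves (-1.24 ± 0.26, adjusted p = 0.0026). The P450 comp24444 had 2.75, 1.84 and 2.62 RPKM in salt, against 5.13, 5.82 and 5.97 in control leaves (-0.97 ± 0.26, adjusted p = 0.010). Its 4 isoforms summed changed by -1.19 ± 0.23 (adjusted p = 0.0016). This P450 and the GDSL esterase were also lower at 24 h. Long chain acyl-CoA synthetase 2-like had 6.47, 4.27 and 5.04 RPKM in salt and 9.04, 18.9 and 14.7 in control leaves (-1.24 ± 0.33, adjusted p = 0.010), and its call was lost without control 6 h replicate 2 (0.0548). Isoform 3 of the camphene/tricyclene synthase had 9.63, 8.73 and 7.92 RPKM in salt and 17.3, 25.3 and 17.8 in control leaves (-1.10 ± 0.28, adjusted p = 0.0081), lost at a pseudocount of 0.1 (0.122). Isoform 1 changed by -0.86 ± 0.30 (adjusted p = 0.040, up to 0.188 without control 6 h replicate 2), and the sum of the 3 isoforms by -0.98 ± 0.39 (adjusted p = 0.057).

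Comp21345, which has no usable description and whose GO terms name transferase activity and the plasma membrane, had 4 of its 5 isoforms lower in salt at 6 h. Isoform 2 had 1.44, 1.80 and 1.79 RPKM in salt, against 3.59, 6.07 and 6.08 in control leaves (-1.20 ± 0.19, adjusted p = 0.00051). Isoforms 3 and 1 changed by -1.13 ± 0.22 and -1.04 ± 0.23 (adjusted p = 0.0019 and 0.0042, the second lost at a pseudocount of 0.1 with 0.0679), and isoform 5 by -0.87 ± 0.28 (adjusted p = 0.029, up to 0.0929 without salt 6 h replicate 3). Isoform 4 changed by -0.67 ± 0.26 (adjusted p = 0.057). Their sum changed by -1.10 ± 0.27 (adjusted p = 0.0066). None of the 4 phytochrome b isoforms was called, at -0.39 to -0.54 (adjusted p = 0.079 to 0.21), while their sum was lower (-0.66 ± 0.22, adjusted p = 0.030).

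**Figure D3:**
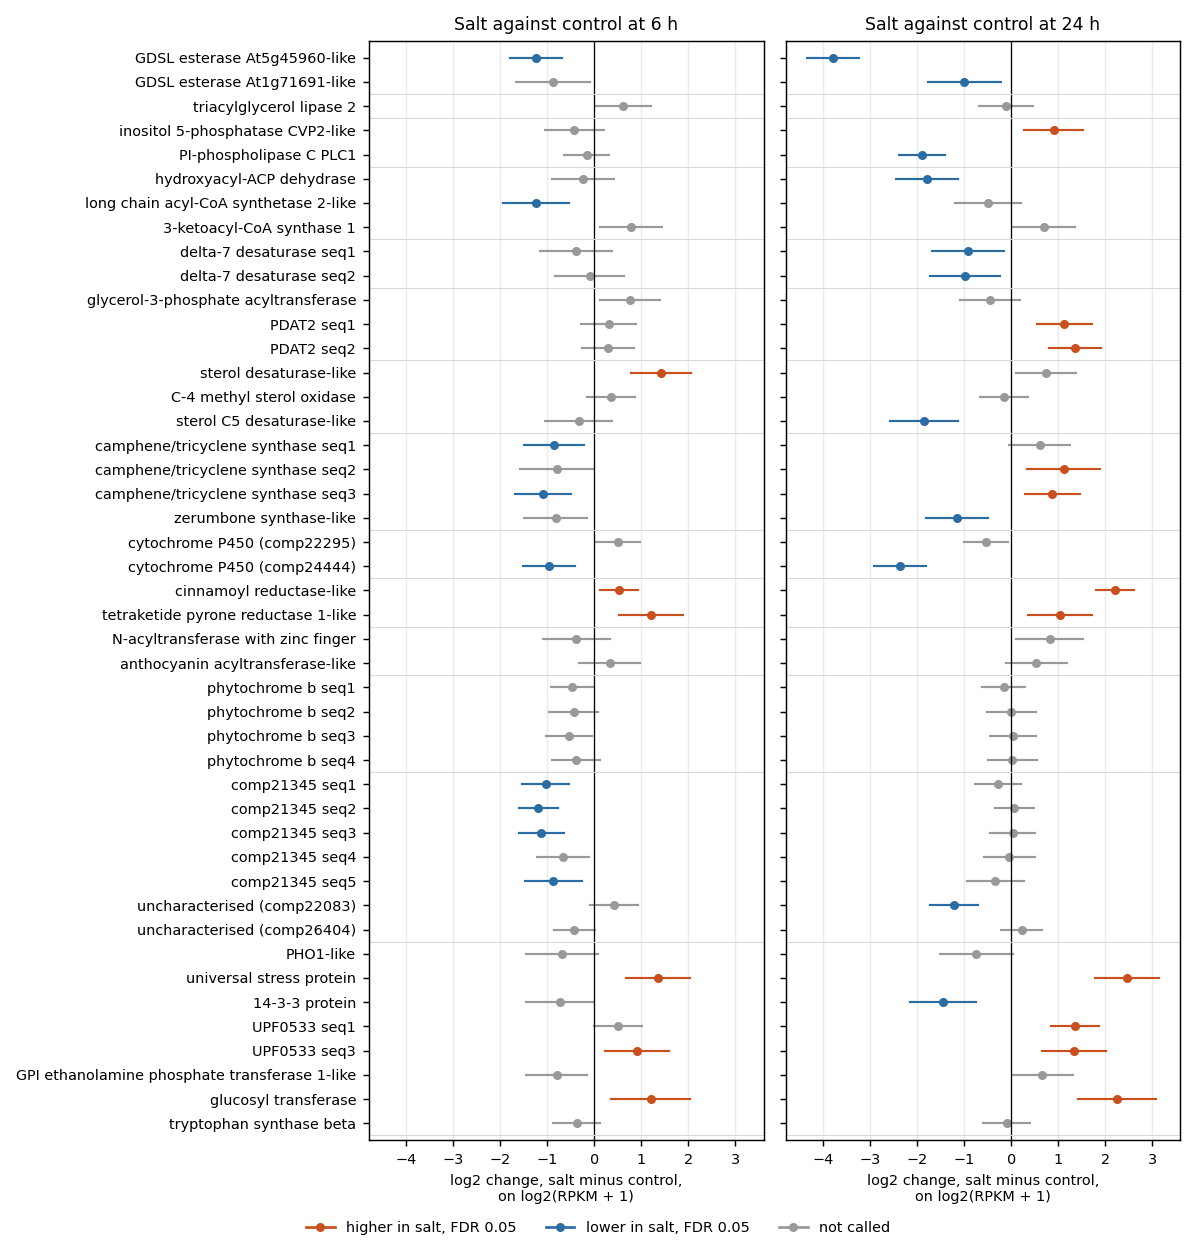
Salt effect of each of the 45 members at 6 h (left) and 24 h (right), as the difference of log2(RPKM + 1) between salt-treated and control leaves (points) with its 95% confidence interval (lines), in red or blue where called at FDR 0.05. At 6 h, 6 members are higher and 9 lower, and at 24 h 11 are higher and 11 lower, with the GDSL esterase At5g45960-like farthest to the left at -3.79.

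Transcripts marking dividing cells (10 found) summed to between 15 and 17.6 RPKM in salt at 6 h and between 33.4 and 58.6 in control leaves. Of the 10, 4 were lower, while 17.2% of all transcripts were. They are fewer genes than 10, with several isoforms each of a kinesin (comp22468) and a replication licensing factor (comp25231). The 3 xylem and lignin transcripts summed to between 21.8 and 25.9 RPKM in salt and between 31.6 and 51.6 in control leaves, with 1 lower. Their part in the results at 6 h was not tested.

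Across both hours, 8 members were called at 6 and at 24 h, 14 at 24 h only, 7 at 6 h only and 16 at neither. Of the 8, 5 were higher at both hours, 2 were lower at both and 1, the camphene/tricyclene synthase isoform 3, was lower at 6 h and higher at 24 h. Over all tested transcripts 34.5% were called at 6 h and 46.5% at 24 h, but their overlap was not counted. Whether the overlap in the members differs from the background was therefore not tested. The difference between the 2 salt effects was tested directly as an interaction. It was positive in 9 members and negative in 8, and 17.1% and 15.2% of all transcripts were called (17 members against 32.3% of all). At the stricter threshold 1 member was positive and 1 negative, while 1.55% and 2.00% of all transcripts were. The 6 h and 24 h effects of each use separate control leaves, which probably came from the same plants.

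Phospholipase C had 75.5, 122 and 88.6 RPKM in salt and 132, 106 and 83.6 in control leaves at 6 h, where the groups overlapped, while its 24 h groups lay far apart. The 24 h effect minus the 6 h effect was -1.73 ± 0.32 (log2, SE, adjusted p = 0.0016). It was also negative for the GDSL esterase comp11731 (-2.55 ± 0.37, adjusted p = 0.00031), the uncharacterised comp22083 (-1.62 ± 0.34, adjusted p = 0.0031), the hydroxyacyl-ACP dehydrase (-1.55 ± 0.44, adjusted p = 0.016) and the P450 comp24444 (-1.39 ± 0.37, adjusted p = 0.012, but 0.254 with HPLC libraries only). In the other direction, the 24 h effect exceeded the 6 h effect for the camphene/tricyclene synthase isoform 3 (1.97 ± 0.39, adjusted p = 0.0023), the cinnamoyl reductase-like transcript (1.70 ± 0.27, adjusted p = 0.00057) and isoform 2 of comp21345 (1.27 ± 0.27, adjusted p = 0.0039). For the cinnamoyl reductase-like transcript the call was lost at a pseudocount of 0.1 (adjusted p = 0.401). The 5 isoforms of comp21345 summed gave 0.70 ± 0.39 (adjusted p = 0.17).

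**Figure D4:**
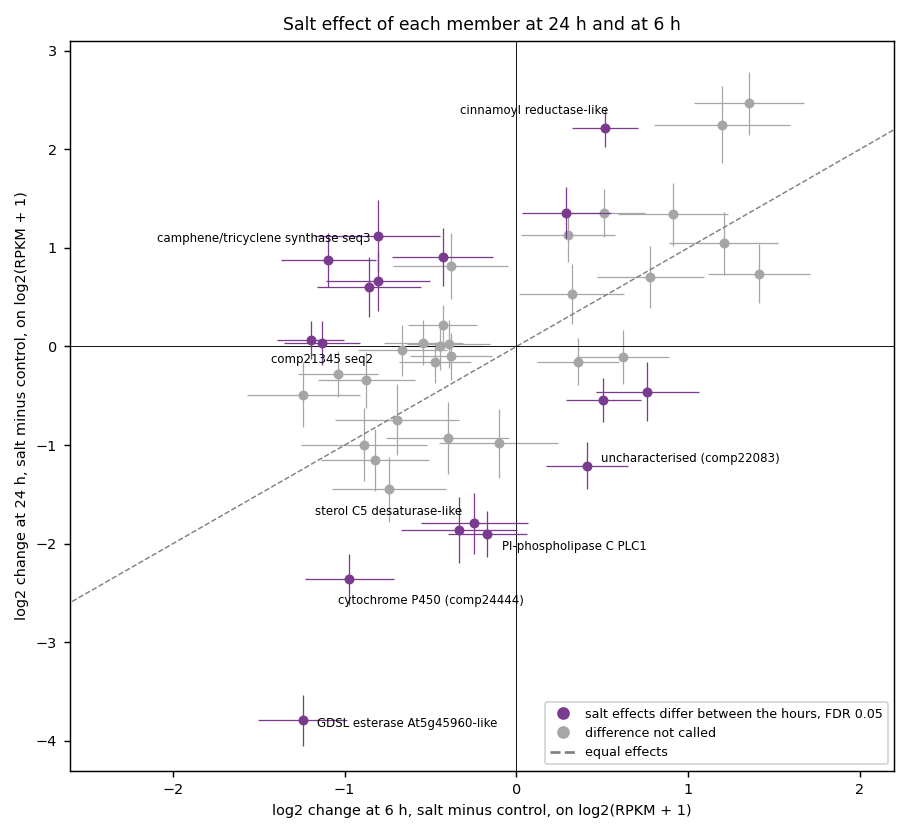
Salt effect at 24 h (vertical axis) against salt effect at 6 h (horizontal axis) for the 45 members, each as a difference of log2(RPKM + 1) with its SE (bars), in purple where the 2 effects differ at FDR 0.05 (17 members). Points on the dashed line have equal effects, and phospholipase C, at -0.17 at 6 h and -1.90 at 24 h, lies well below it.

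Untreated plants also differed between sampling times, and hour of the day, elapsed time and earlier sampling of the plants cannot be told apart. In control leaves 13 members were higher and 16 lower at 6 h than at 0 h, while 29.0% and 28.1% of all transcripts were called (29 members against 57.1% of all). At the stricter threshold 8 were higher and 8 lower, while 15.2% and 10.8% of all transcripts were. The calls are 7 and 12 components, since isoforms of 1 gene count more than once.

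The camphene/tricyclene synthase rose most. Isoform 3 had 17.3, 25.3 and 17.8 RPKM at 6 h, against 0.12, 1.19 and 0.92 at 0 h (3.63 ± 0.28, adjusted p = 6.0e-08), and the sum of the 3 isoforms changed by 4.21 ± 0.39 (adjusted p = 3.7e-07). The 5 isoforms of comp21345 rose too, by 1.64 to 2.29, and isoform 1 had 5.42, 9.31 and 8.63 RPKM at 6 h, against 1.08, 0.515 and 0.735 at 0 h (adjusted p = 1.1e-06). Isoform 2 of comp21345 entered the test through the 6 h groups only. The sterol C5 desaturase-like transcript had 167, 184 and 240 RPKM at 6 h and 67.4, 96.8 and 193 at 0 h (0.84 ± 0.34, adjusted p = 0.043), where the groups overlapped and the call was lost without any one of 7 replicates, up to an adjusted p of 0.208 without control 0 h replicate 1. Smaller increases were seen for phospholipase C (0.78 ± 0.23, adjusted p = 0.0089), tryptophan synthase beta (comp7584, 0.82 ± 0.24, adjusted p = 0.0085) and the uncharacterised comp26404 (0.77 ± 0.20, adjusted p = 0.0046), the last lost with HPLC libraries only (0.430). Comp26404 also entered the test through the 6 h groups only. The GPI ethanolamine phosphate transferase 1-like transcript (comp21697), of an enzyme that modifies glycolipid anchors of proteins, had 3.02, 6.58 and 4.98 RPKM at 6 h and 0.83, 3.08 and 2.19 at 0 h (0.98 ± 0.30, adjusted p = 0.012), and its call was lost without control 0 h replicate 1 (0.0740) or control 6 h replicate 2 (0.0619).

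Enzymes of sterol and glycerolipid synthesis were among those lower at 6 h. C-4 methyl sterol oxidase had 21.9, 15.8 and 18.9 RPKM at 6 h, against 96.5, 64.7 and 53.8 at 0 h (-1.84 ± 0.24, adjusted p = 1.3e-05). The sterol desaturase-like comp11551 changed by -2.01 ± 0.30 (adjusted p = 4.7e-05). The glycerol-3-phosphate acyltransferase had 2.67, 4.96 and 5.05 RPKM at 6 h and 20.1, 11.5 and 18.5 at 0 h (-1.76 ± 0.30, adjusted p = 0.00017). Isoform 2 of the delta-7 desaturase had 2.62, 1.02 and 1.32 RPKM at 6 h and 8.56, 7.02 and 4.0 at 0 h (-1.50 ± 0.35, adjusted p = 0.0019). 3-Ketoacyl-CoA synthase 1 changed by -1.03 ± 0.31 (adjusted p = 0.011), lost without control 0 h replicate 3 (0.0586).

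Phytochrome b and comp22083 had the steepest falls. Isoform 1 of phytochrome b (comp17278) had 1.79, 3.04 and 2.04 RPKM at 6 h, against 17.2, 16.3 and 14.1 at 0 h (-2.37 ± 0.21, adjusted p = 2.8e-07), and the other 3 isoforms fell by 1.93 to 2.3. Comp22083 had 4.75, 5.31 and 3.29 RPKM at 6 h and 27.6, 33.7 and 22.8 at 0 h (-2.42 ± 0.24, adjusted p = 8.3e-07). In salt-treated leaves phytochrome b isoform 1 had 1.23, 1.39 and 1.41 RPKM at 6 h, below all 3 control replicates of that hour (adjusted p = 0.091), and at 24 h it had 11.9, 9.04 and 9.70 RPKM in salt and 11.6, 10.9 and 11.9 in control leaves.

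**Figure D5:**
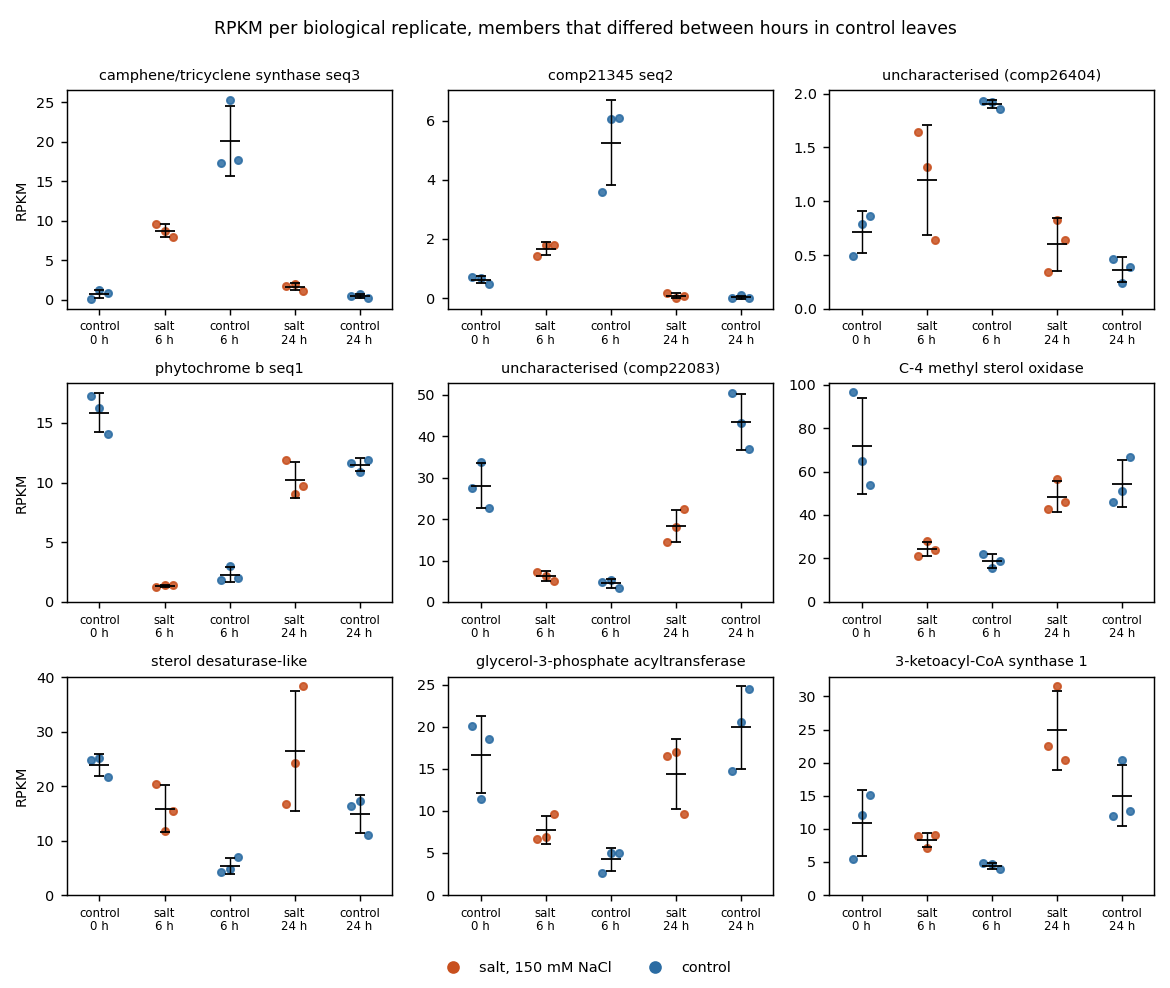
RPKM (vertical axis, linear, scale differing between panels) of 9 members in each biological replicate of the 5 groups (points), with the mean and SD (black). In control leaves the first 3 panels are highest at 6 h and the other 6 lowest at 6 h, such as phytochrome b isoform 1 at 1.79 to 3.04 RPKM at 6 h against 10.9 to 17.2 RPKM at the other hours.

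Between control leaves at 24 h and at 0 h, 0 members were higher and 8 lower at FDR 0.05 in limma, while 16.2% and 22.1% of all transcripts were called (8 members against 38.3% of all), and 5 members were higher and 10 lower at an unadjusted p under 0.05, while 20.7% and 27.5% of all transcripts were. With replicates of 1 treatment and number as a block, 2 members were higher and 7 lower, the sterol C5 desaturase-like transcript (adjusted p = 0.046) and UPF0533 isoform 1 (adjusted p = 0.048) being the higher ones and comp21345 isoform 5 losing its call (adjusted p = 0.071). The stricter threshold left 0 members either way, at a background of 3.28% higher and 3.56% lower. The split depends on the scaling, since with equal medians of the replicates, which moved the median change of all transcripts from -0.08 to 0.12, it was 7 higher and 5 lower. The 8 were 4 isoforms of comp21345 and the transcripts comp16079, comp18299, comp22295 and comp16945, and 4 of the 8 calls held in all fits without 1 replicate. The N-acyltransferase with a zinc finger domain (comp16079) had 2.14, 0.73 and 1.26 RPKM at 24 h and 3.46, 5.38 and 5.47 at 0 h (-1.30 ± 0.33, adjusted p = 0.0072). The 14-3-3 protein had 15.1, 19.7 and 19.1 RPKM at 24 h and 74.6, 41.4 and 24.4 at 0 h (-1.20 ± 0.33, adjusted p = 0.011), and lost its call without control 0 h replicate 1 (0.0566). Dividing-cell markers summed to between 10.04 and 18.4 RPKM at 24 h and between 41.2 and 45.5 at 0 h. Of these 10 transcripts, several being isoforms of 1 gene, 9 were lower, while 22.1% of all transcripts were. Their part in these differences was not tested.

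Between control leaves at 24 h and at 6 h, 21 members were higher and 15 lower, while 27.4% and 34.2% of all transcripts were called (36 members against 61.6% of all). At the stricter threshold 9 were higher and 10 lower, while 12.8% and 19.8% of all transcripts were. With equal medians of the replicates the split was 25 and 13, and in the fit without that scaling the median change was 0.61 in the members and -0.08 in all. The glycerol-3-phosphate acyltransferase (2.01 ± 0.30, adjusted p = 3.7e-05), comp22083 (3.04 ± 0.24, adjusted p = 6.4e-08) and triacylglycerol lipase 2 (1.18 ± 0.27, adjusted p = 0.0016) were higher at 24 h, and all 3 camphene/tricyclene synthase isoforms were lower (-3.41 to -3.85). Dividing-cell markers summed to between 10.04 and 18.4 RPKM at 24 h and between 33.4 and 58.6 at 6 h. Of these 10 transcripts, several being isoforms of 1 gene, 9 were lower, while 34.2% of all transcripts were. The kinesin-related comp10255 was higher, with means of 6.60 RPKM at 24 h and 2.72 at 6 h. The part of these markers in the differences was not tested. The 3 comparisons among control leaves share samples, so their counts are not independent.

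Other lipid-related transcripts outside the 45 were few. Of 5 lipid transfer proteins, which carry lipids to the cell surface, 3 were higher and 1 lower in salt at 24 h, while 24.2% and 22.3% of all transcripts were. Their median change was 0.93. At 6 h, 2 of the 5 were higher, while 17.3% of all transcripts were. Of the 3 higher at 24 h, 2 are isoforms of comp11819. The AKCS9-like one (comp15976) had 528, 621 and 739 RPKM in salt at 24 h, against 125, 157 and 194 in control leaves (1.99, adjusted p = 0.00062). Both isoforms of an acyl-protein thioesterase 2-like transcript (comp14713), which removes fatty acids from proteins, were lower at both hours. Isoform 1 had 3.87, 7.07 and 7.92 RPKM in salt at 24 h, against 18.8, 39.7 and 77 in control leaves (-2.49, adjusted p = 0.0027). Of 5 lipid signalling transcripts, which include isoforms 1 and 2 of comp21663, 1 was higher and 2 lower at 6 h, while 17.3% and 17.2% of all transcripts were. At 24 h 1 was lower, while 22.3% of all transcripts were. It was a diacylglycerol kinase zeta-like transcript (comp10354) with 2.76, 3.40 and 6.90 RPKM in salt and 17.9, 6.09 and 11.1 in control leaves (-1.21, adjusted p = 0.0095).

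Libraries made with the 2 kinds of primer from 1 replicate differed, as the root mean square of the log2 difference over 13 replicates, by 0.14 to 1.01 between members with a median of 0.39, against a median of 0.50 over all tested transcripts. The median SD between biological replicates was 0.35 in the members and 0.36 in all.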

How the data were processed

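The authors assembled reads of all libraries with Trinity, estimated expression with RSEM and annotated transcripts with Blast2GO. The deposited values are RPKM per library and transcript. Whether a further scaling factor was applied and how the 4767 transcripts were chosen are not given in the sources used here. Of the 29 columns, 28 were used. Salt 24 h replicate 2 had 1 labelled sample but an HPLC and a non-HPLC column, and the non-HPLC column was left out. The labels do not say which primer that sample had, so leaving out this column was a choice. The study lists reads for every library of salt at 24 h. The 3 labelled samples of salt at 0 h were not analysed here. No sequences or genome positions were used here.

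The members and lists were chosen with earlier results of these data known. Libraries of a replicate were averaged, transcripts with at least 1 RPKM in 3 replicates were kept (4658, leaving out 109), and log2(RPKM + 1) was fitted for all 5 groups with limma 3.58.1 (R 4.3.3, trend in the prior variance) with Benjamini-Hochberg adjustment. The values are not counts, so no count model was used. In data simulated for salt against control, the fit was checked before use. Calls used an FDR of 0.05, and the authors' threshold (FDR 0.001, log2 change of 1) as an alternative. Members were named by a rule of up to 10 per direction by adjusted p, 1 per component, in each salt comparison, up to 5 per direction in the interaction and in control leaves at 6 h or 24 h against 0 h, plus the 2 highest of each family and their isoforms. This named 43 of the 45, and the 3-ketoacyl-CoA synthase was added after its values were seen. Roles were sorted by description after the data were seen. Alternatives were a pseudocount of 0.1, no filter, each library as a replicate, HPLC libraries only, the compared groups alone, equal medians, a replicate block and leaving out each replicate. Summed isoforms and a block by treatment and number were added after the data were seen. Replicate numbers come from the column names. The methods describe 3 set groups of plants per treatment and sampling at each hour, so leaves of 1 treatment at different hours probably came from the same plants, but whether a number names the same group at each hour is not stated. Of the 9 pairs of control replicates with the same number, 8 had deviations that correlated above 0 and 5 above 0.1 (lowest -0.204, median 0.120, highest 0.288). Petal pigment had 1 marker found and epidermis 0.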

Additional observations from a re-analysis of the deposited data

Results flagged for a closer look

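For 17 members the salt effect at 24 h differed from that at 6 h by the interaction test in limma at FDR 0.05. The values are the 24 h effect minus the 6 h effect on log2(RPKM + 1), and adjusted p is limma's.

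The 24 h effect was the lower one for the GDSL esterase comp11731 (-2.55), phospholipase C (-1.73), the uncharacterised comp22083 (-1.62), the hydroxyacyl-ACP dehydrase (-1.55), the sterol C5 desaturase-like comp16227 (-1.52), P450 comp24444 (-1.39), the glycerol-3-phosphate acyltransferase (-1.22) and P450 comp22295 (-1.05). The last 2 members had no call at either hour alone. In salt, P450 comp22295 had 1.89, 1.98 and 1.26 RPKM at 6 h, against 0.83, 1.33 and 0.595 in control leaves of that hour, and the acyltransferase had 6.72, 6.87 and 9.63 RPKM, against 2.67, 4.96 and 5.05. The acyltransferase also lost its call with the replicate block (adjusted p = 0.0514), with the block by treatment and number (0.0579) and with HPLC libraries only (0.0686). The calls of the acyltransferase (adjusted p = 0.040, up to 0.0985 without salt 24 h replicate 3), comp16227 (adjusted p = 0.025, up to 0.0630 without salt 6 h replicate 2) and comp22295 (adjusted p = 0.020, 0.0524 without control 6 h replicate 3) did not hold in all fits that left out 1 replicate.

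The 24 h effect was the higher one for the camphene/tricyclene synthase isoforms 3 (1.97), 2 (1.93) and 1 (1.46), the cinnamoyl reductase-like comp18237 (1.70), the GPI ethanolamine phosphate transferase 1-like comp21697 (1.47), the CVP2-like 5-phosphatase (1.33), comp21345 isoforms 2 (1.27) and 3 (1.17), and isoform 2 of phospholipid:diacylglycerol acyltransferase 2 (1.06). Comp21697 had 2.15, 2.67 and 1.95 RPKM in salt and 3.02, 6.58 and 4.98 in control leaves at 6 h, and 3.04, 1.87 and 2.79 RPKM in salt and 1.04, 1.29 and 1.36 in control leaves at 24 h, so that the groups did not overlap at either hour and lay in opposite order, although neither difference passed the test alone. Its interaction was lost without control 6 h replicate 2 (adjusted p = 0.0503). The calls of the 5-phosphatase (adjusted p = 0.025, up to 0.0677 without salt 24 h replicate 1) and of the acyltransferase isoform (adjusted p = 0.038, up to 0.0936 without control 24 h replicate 2) were also lost in 4 and 9 of the 15 such fits. At a pseudocount of 0.1 the calls of camphene/tricyclene synthase isoforms 1 (adjusted p = 0.0535) and 2 (0.0558) and of comp21345 isoform 3 (0.0695) were lost, the last also with HPLC libraries only (0.0851). Of the 17 calls, 6 held in all fits without 1 replicate and with the pseudocount, low-value minimum, libraries, samples, scaling and replicate block varied in turn.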

How the results depend on the processing

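No member value with a call reversed its direction under any alternative run (0 reversed, 352 calls lost and 143 gained over 270 values and all alternatives). For many of these a reversal could not occur. Dropping the filter, the replicate blocks, the compared groups alone and the stricter threshold keep the log2 changes as they are. Leaving out a replicate moves only the comparisons that use its group. The counts of members called were 15 and 22 for salt at 6 and 24 h, 17 for the interaction, and 29, 8 and 36 for control leaves at 6 h against 0 h, 24 h against 0 h and 24 h against 6 h. At FDR 0.001 with a log2 change of 1 these became 1, 11, 2, 16, 0 and 19. With each library as a replicate, 27 members were called for salt at 6 h and 19 for control 24 h against 0 h, where technical replicates are taken as independent. For control 24 h against 0 h, HPLC libraries only gave 5 and the compared groups alone gave 5. Summed isoforms gave 18 components for control 6 h against 0 h, since 33 components were counted in place of 45 transcripts. Of all 3421 components tested, 28.4% were called higher and 28.1% lower there. Leaving out each replicate gave 9 to 19 for salt at 6 h, 18 to 25 for salt at 24 h, 13 to 19 for the interaction, and 23 to 29, 6 to 11 and 30 to 36 for the control comparisons. Where leaving out a replicate left 2 in a group, the spread was shared by all groups. Apart from the stricter threshold and the summed isoforms, counts under an alternative are given without the share of all transcripts called in that fit. Their shifts are therefore not read as results about the members. This also holds for the block counts and for the splits with equal medians.

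With the replicate number as a block the counts were 17, 21, 16, 29, 9 and 36, and with a block by treatment and number 16, 29, 9 and 35 for the interaction and the control comparisons. The block by treatment and number ended the interaction call of the glycerol-3-phosphate acyltransferase and 3 calls among control leaves and added 3 there. Salt-treated and control replicates with the same number came from different plants. The precision of all values is limited by 3 replicates a group, 2 of them with 1 library. The values keep no read counts, and the read totals that the study lists per library were not used.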
